A study of Mus musculus with 24 samples.

Results

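The genes described here are 10 regulators and matrix genes of cartilage and bone, taken by name from the 26225 GENCODE M1 genes whose exons were counted (22380 protein-coding and 3845 non-coding). They are Sox9, Col2a1, Col9a1, Col9a2, Col11a1, Acan and Matn1 of cartilage, and Runx2, Sp7 and Ibsp of bone. All 10 passed the filter of at least 20 sequence tags over the RiboMinus preparations, as did 15583 genes in all. RNA depleted of ribosomal RNA was sequenced from whole fetal heads (FH) of wildtype FVB/N mice at 14.5 days postcoitum and from CCE cells, a feeder-independent mouse embryonic stem cell line that was differentiated by withdrawal of LIF and 5 days of 0.266 µM retinoic acid. The comparison sets a whole head, which holds brain and other organs beside cartilage and bone, against a cell culture with endoderm traits. The RiboMinus kit was applied to RNA that gave 4 CCE and 3 FH cDNA preparations, named here by tissue, number and fragmentation (s for sheared cDNA, h for hydrolysed RNA). Each was sequenced in 2 locations, which makes 14 libraries. According to the paper, shearing and hydrolysis were carried out on the same depleted samples. Preparations s and h of equal number in a tissue are thus taken to share their RNA. FH2h had gone through 2 rounds of depletion and the others through 1. The Ribo-Zero kit was applied to RNA of another isolation, which was hydrolysed after depletion, with 1 library per tissue.

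Cartilage and bone of the skull come from mesenchyme of neural crest and mesoderm. Sox9 is the transcription factor that commits mesenchymal cells to the chondrocyte lineage and switches on the genes of the cartilage matrix. This matrix is a network of type II collagen fibrils (Col2a1) with type XI collagen (Col11a1) in their core and type IX collagen (Col9a1, Col9a2) on their surface, filled with the proteoglycan aggrecan (Acan) and bridged by matrilin-1 (Matn1). Runx2 and, downstream of it, Sp7 (osterix) direct mesenchymal cells to the osteoblast lineage, both in bones that replace a cartilage template and in the flat bones that form directly in mesenchyme. Ibsp, bone sialoprotein, is a secreted phosphoprotein that binds mineral and integrins and marks osteoblasts that lay down mineralising matrix.

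Between 920424 and 2473448 uniquely aligned tags were listed per RiboMinus library, and 28708715 for CCE and 48426051 for FH in the Ribo-Zero libraries. The CCE preparations are technical replicates and no separate animals are stated for FH, so that p-values measure only the spread between cDNA preparations. Preparations that share depleted RNA count as separate units in these p-values and in the SDs. The hydrolysed FH1 library sequenced at Vienna-IMP is held to be a likely technical outlier, and the numbers of the hydrolysed preparations may be crossed at 1 location. Leaving that library out or crossing the numbers changed no call of a member. Markers of other tissues were abundant in FH. All 9 neural, all 7 retina and lens, all 6 skeletal muscle and all 4 epidermis markers were higher in FH, and 8 of 10 markers of extraembryonic endoderm were lower. Over all genes tested 23.4% were called higher and 26.8% lower. The summed level of the neural markers was 390 to 629 RPKM over the FH preparations and 47.4 to 56.1 over those of CCE, that of the extraembryonic endoderm markers 115 to 125 in FH and 382 to 509 in CCE. Fabp7, Crybb1, Six6, Myh3, Myh8, Myog, Krt5 and Tnmd were at 0 in every CCE RiboMinus preparation, and the endoderm factor Gata4 was at 0 in those of FH. The part of this mixture in the results on the members was not tested. Tags in coding exons made up 43.7% to 60.1% of the FH and 64.0% to 71.1% of the CCE RiboMinus libraries.

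All 10 genes were higher in FH than in CCE cells. Exon levels are given as RPKM, the tags of a gene scaled to the length of its merged exons in kb and to the unique tags of the library, and differences as the log2 fold change of RPKM + 1, which understates the change of genes with low values. The fold changes ranged from 1.43 for Sox9 to 4.96 for Matn1 and all passed an adjusted p of 0.05 (limma, Benjamini-Hochberg over 15583 genes). Of all genes tested, 23.4% were called higher and 26.8% lower in FH, with a median fold change of -0.14. This split depends on the scale, since with tags scaled to coding exons 4563 genes were higher and 2554 lower (3643 and 4176 on the scale of all unique tags) and the median was 0.13, with all 10 members still higher. For each of the 10 genes the lowest FH preparation lay above the highest CCE preparation, which held for 24.2% of the genes tested. The same separation was seen between the 14 single libraries, where it held for 15.6% of the genes tested. In bulk samples such as these, fewer cells of a type and less RNA per cell cannot be told apart. In the Ribo-Zero libraries, which have no replicate, 7 of the 10 genes were over 8-fold higher in FH, against 8.83% of 17647 genes. The other three, Sox9, Col9a2 and Col11a1, were 2.56-fold, 7.97-fold and 7.77-fold higher. With tags of the same start and strand counted once, a measure that is capped in abundant genes, 6 members were past 8-fold. With tags scaled to coding exons 9 were. That scale raises the ratio of FH to CCE for every gene, since coding exons held 60.8% of the CCE and 42.4% of the FH Ribo-Zero tags. The share of all genes past 8-fold is not given for these counts, which therefore cannot be set against the 8.83%.

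**Figure D1:**
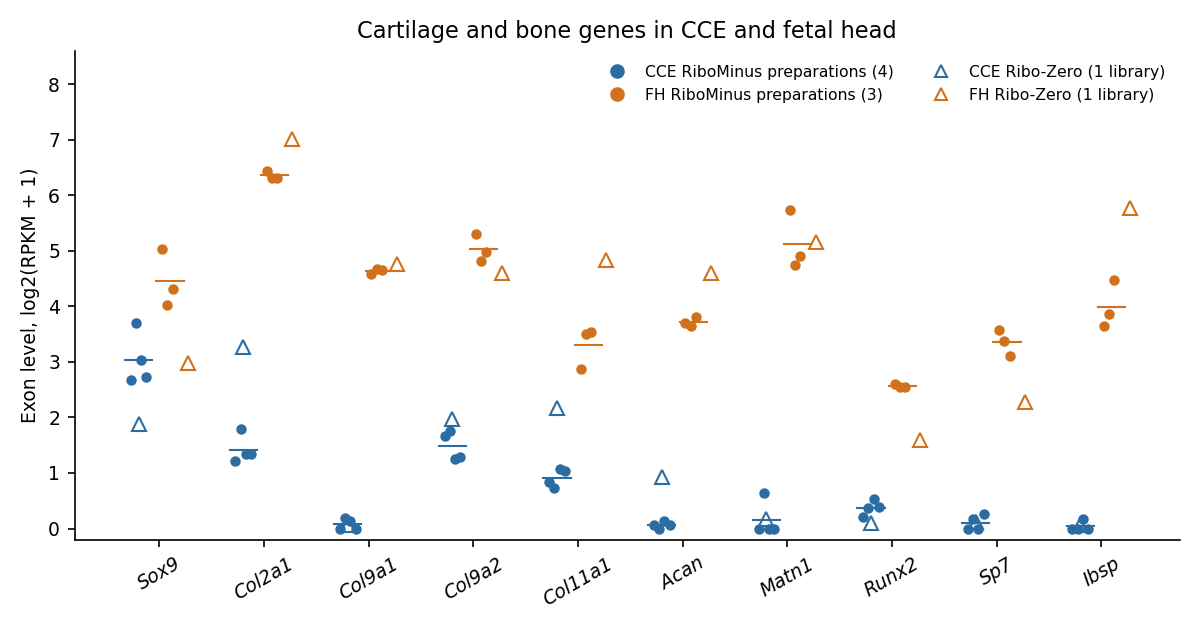
Exon levels of the 10 genes on the scale of log2(RPKM + 1), with 1 point per RiboMinus preparation (4 CCE, 3 FH), a bar at the mean of each tissue and open triangles for the single Ribo-Zero library of each tissue. The FH points of each gene lie above its CCE points, and those of Sox9 lie closest to them (5.34 to 12.1 RPKM in CCE, 15.2 to 31.9 RPKM in FH).

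Sox9 was the member with the highest level in the CCE RiboMinus preparations. It had 5.34 RPKM in CCE1s, 12.1 in CCE2s, 7.15 in CCE1h and 5.60 in CCE2h, against 31.9 in FH1s, 15.2 in FH1h and 18.9 in FH2h. The tissues did not overlap, but the spread within each was wide, with CCE2s and FH1s at the upper ends. FH exceeded CCE by a log2 fold change of 1.43 ± 0.32 (SE, adjusted p = 0.00511), the smallest of the members. From pooled tags FH was 2.72-fold higher with RiboMinus (95% interval 2.41 to 3.07) and 2.56-fold higher with Ribo-Zero (2.27 to 2.90), with 2.68 and 6.86 RPKM in the Ribo-Zero libraries of CCE and FH. These intervals, and all others given for pooled tags, are exact and cover counting error only, since tags with the same start can be copies of 1 molecule. Sox9 lies on chromosome 11 (mm9, 112643538 to 112649074, plus strand) in 3 exons.

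The 4 collagen genes share an unusual exon structure, which bears on how many tags can be mapped to them. The collagen triple helix needs glycine at every Gly-X-Y step, and most exons of the helix hold whole steps, with 54 nt as the basic length. The median exon of the main transcript was 54 nt in Col2a1 (54 exons), Col9a1 (38), Col9a2 (32) and Col11a1 (67), against 175 nt in Acan and 792 nt in Sox9. For each gene the helix exon of 54 nt with the most FH RiboMinus tags is shown, and below them an exon of 45 nt, each 5′ to 3′ on the coding strand of mm9, with glycine codons in capitals. They are Col2a1 exon 6 (chr15:97828976-97829029, minus strand), Col9a1 exon 21 (chr1:24227583-24227636, plus), Col9a2 exon 12 (chr4:120717746-120717799, plus), Col11a1 exon 60 (chr3:113909286-113909339, plus) and Col2a1 exon 15 (chr15:97824975-97825019, minus).
Col2a1 exon 6: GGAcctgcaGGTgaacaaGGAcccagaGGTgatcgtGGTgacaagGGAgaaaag
Col9a1 exon 21: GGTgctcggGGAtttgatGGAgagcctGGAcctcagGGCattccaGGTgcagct
Col9a2 exon 12: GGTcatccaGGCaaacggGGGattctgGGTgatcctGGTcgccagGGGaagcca
Col11a1 exon 60: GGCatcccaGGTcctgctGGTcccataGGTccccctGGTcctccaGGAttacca
Col2a1 exon 15: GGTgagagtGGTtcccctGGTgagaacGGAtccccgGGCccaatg
Each exon of 54 nt starts with a glycine codon and holds 6 of them among 18 codons, and the exon of 45 nt holds 5 among 15. These 5 exons collected 45, 51, 21, 25 and 34 FH RiboMinus tags and 335, 166, 22, 64 and 150 FH Ribo-Zero tags, in the order printed.

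Col2a1, the main fibril collagen of cartilage, was the most abundant member in FH. It had 86.0, 78.4 and 78.5 RPKM in FH1s, FH1h and FH2h and 1.33, 2.45, 1.54 and 1.53 RPKM in CCE1s, CCE2s, CCE1h and CCE2h. The FH preparations lay far above those of CCE. Their closeness rests on the sum of both locations, since FH1h had 100.4 RPKM at Vienna-IMP, in the library held to be a likely outlier, and 49.2 at Nijmegen. The log2 fold change was 4.93 ± 0.19 (adjusted p = 4.36e-07), and pooled RiboMinus tags (132 in CCE, 4782 in FH) gave a 47.6-fold difference (40.1 to 57.1). In the Ribo-Zero libraries it had 8.61 RPKM in CCE and 127 in FH, a 14.8-fold difference (14.04 to 15.6). The 37201 FH Ribo-Zero tags began at no more than 4851 positions and strands, against 1024 for 1491 tags in CCE, so that starts were reused more in FH. A ratio of 2.31 with each start counted once is capped by the number of places a tag can start (3241 per strand for tags wholly within an exon). With tags scaled to coding exons the Ribo-Zero ratio was 21.2. Col2a1 lies on chromosome 15 (97806033 to 97835155, minus strand).

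Col9a1, a chain of the type IX collagen that coats the fibrils, had 22.9, 24.3 and 24.0 RPKM in FH1s, FH1h and FH2h. In CCE it was at 0 in CCE1s and CCE2h, at 0.144 in CCE2s and at 0.0978 in CCE1h, from 4 tags in all. The log2 fold change of 4.55 ± 0.16 (adjusted p = 4.27e-07) came with the narrowest spread relative to the mean in FH among the collagens. Ribo-Zero gave 0.0408 RPKM in CCE (6 tags) and 26.2 in FH (6497 tags).

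Col9a2, a second chain of type IX collagen, was not as restricted to FH as Col9a1. It had 2.16, 2.39, 1.38 and 1.44 RPKM in CCE1s, CCE2s, CCE1h and CCE2h and 38.3, 27.2 and 30.6 in FH1s, FH1h and FH2h. In both tissues the sheared preparations were the highest. FH exceeded CCE by a log2 fold change of 3.54 ± 0.21 (adjusted p = 2.74e-06), and the pooled ratio 17.3 (13.6 to 22.3). With Ribo-Zero it was 2.91 RPKM in CCE and 23.2 in FH.

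Col11a1, a chain of the type XI collagen in the fibril core that bone and other connective tissue also make, had 6.36, 10.3 and 10.6 RPKM in FH1s, FH1h and FH2h. In CCE it had 0.798, 0.651, 1.09 and 1.05 RPKM in CCE1s, CCE2s, CCE1h and CCE2h. Here the sheared preparations were the lowest of both tissues, the reverse of Col9a2. The log2 fold change was 2.39 ± 0.22 (adjusted p = 2.50e-05), the smallest among the 6 cartilage matrix genes, with a pooled ratio of 10.5 (8.64 to 12.8). In the Ribo-Zero libraries it had 3.52 RPKM in CCE and 27.4 in FH.

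Acan, the core protein of the large proteoglycan that keeps cartilage hydrated, had 12.0, 11.5 and 12.99 RPKM in FH1s, FH1h and FH2h. In CCE it had 5 tags over all RiboMinus libraries and between 0 and 0.102 RPKM per preparation. Its log2 fold change was 3.65 ± 0.15 (adjusted p = 6.53e-07). With Ribo-Zero the CCE library held 191 Acan tags (0.905 RPKM), which was 17.4 times the RiboMinus level (7.31 to 54.1), and FH had 23.2 RPKM. The ratio of FH to CCE was 235 (100.5 to 727) with RiboMinus and 25.7 (22.3 to 29.8) with Ribo-Zero.

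Matn1, which links the collagen and proteoglycan networks of cartilage, had the largest SD between FH preparations (14.4 RPKM, n = 3). It had 52.1 RPKM in FH1s, 25.7 in FH1h and 28.8 in FH2h. In CCE it was at 0 in CCE1s, CCE1h and CCE2h, and its 3 tags all came from CCE2s (0.554 RPKM). The log2 fold change was 4.96 ± 0.29 (adjusted p = 2.29e-06), the largest of the members, and it was between 4.66 and 5.15 when each preparation was left out in turn. The rank depended on the setting. Without FH1s Matn1 had 4.66 and Col2a1 4.89, and with the larger pseudocount Matn1 had 3.56 and Col2a1 4.16. Ribo-Zero gave 0.122 RPKM in CCE (7 tags) and 34.5 in FH (3345 tags).

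Runx2 was the least abundant member in FH, with close values of the preparations once both locations were summed. It had 5.09, 4.84 and 4.82 RPKM in FH1s, FH1h and FH2h and 0.152, 0.293, 0.454 and 0.303 RPKM in CCE1s, CCE2s, CCE1h and CCE2h. This gave a log2 fold change of 2.19 ± 0.15 (adjusted p = 5.20e-06), and the pooled ratio 15.6 (11.1 to 22.6). The single libraries were less close, with 5.56 RPKM at Vienna-IMP and 3.90 at Nijmegen for FH1h, and 4.03 and 5.62 for FH2h. In the Ribo-Zero libraries Runx2 had 0.0670 RPKM in CCE (17 tags) and 2.03 in FH. The gene spans chromosome 17 from 44632936 to 44951746 (minus strand). Of its 8837 exon bases 2532 are shared with a second annotated Runx2 entry on the same strand and 519 with Gm10497 on the other strand, and the latter held 36 of the 428 FH RiboMinus tags, which without strand cannot be told apart.

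Sp7, the osteoblast factor that acts after Runx2, had 11.0, 9.38 and 7.60 RPKM in FH1s, FH1h and FH2h. In CCE it was at 0 in CCE1s and CCE1h, at 0.121 in CCE2s and at 0.195 in CCE2h, from 3 tags. The log2 fold change was 3.25 ± 0.18 (adjusted p = 1.77e-06). Ribo-Zero gave 0.0916 RPKM in CCE (8 tags) and 3.85 in FH (567 tags), a 42.0-fold difference (21.2 to 97.8).

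Ibsp, the only matrix protein of bone among the members, had 11.5, 13.5 and 21.3 RPKM in FH1s, FH1h and FH2h and a single CCE tag, in CCE1h (0.121 RPKM). Its log2 fold change was 3.95 ± 0.22 (adjusted p = 1.96e-06). In the Ribo-Zero libraries it stood out with 53.5 RPKM in FH (5362 tags) against 0.0505 in CCE (3 tags), a ratio of 1059.6 (362 to 5140). Exon 7 (chromosome 5, 104739041 to 104740488, plus strand), with 1448 of the 2068 exon bases, held 282 of 339 FH RiboMinus and 4211 of 5362 FH Ribo-Zero tags. Per length its level in FH was 19.6 RPKM with RiboMinus and 60.1 with Ribo-Zero, against 17.4 and 90.9 in exon 6. Exon 7 encodes the integrin-binding Arg-Gly-Asp motif, shown in capitals with its neighbouring codons (chr5:104739434-104739562, mm9, plus strand).
Ibsp exon 7, part: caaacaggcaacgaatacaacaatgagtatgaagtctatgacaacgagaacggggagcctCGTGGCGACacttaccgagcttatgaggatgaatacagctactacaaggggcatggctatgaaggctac

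Ordered by mean RiboMinus level in FH, the members were Col2a1 (81.0 RPKM), Matn1 (35.5), Col9a2 (32.1), Col9a1 (23.8), Sox9 (22.0), Ibsp (15.4), Acan (12.2), Sp7 (9.31), Col11a1 (9.06) and Runx2 (4.92). The ranges over preparations overlapped between Matn1 and Col9a2, Col9a1 and Sox9, Sox9 and Ibsp, Ibsp and Acan, and Sp7 and Col11a1, so that these neighbours did not differ beyond their spread. Col2a1 at the top and Runx2 at the bottom stood clear of the rest. The Ribo-Zero library kept both ends of this order but had Ibsp, Matn1 and Col11a1 next to Col2a1. Some neighbours change places when RPKM is taken per position at which a tag fits within an exon, as described below. Pooled FH RiboMinus libraries then had 47.2 for Col9a2 and 37.3 for Matn1, and 12.7 for Col11a1 and 9.23 for Sp7.

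The levels of the same gene in FH differed between the depletion kits, and not in one direction. Relative to the pooled RiboMinus libraries, the Ribo-Zero library of FH held 3.24 times as much Ibsp (2.90 to 3.63), 2.84 times Col11a1 (2.65 to 3.04), 1.90 times Acan (1.77 to 2.03) and 1.59 times Col2a1 (1.55 to 1.64). Col9a1 (1.09) and Matn1 (1.08) were close to equal. Col9a2 was lower with Ribo-Zero (0.754, 0.701 to 0.811). The 3 regulators were lower as well, at 0.343 for Sox9 (0.314 to 0.374), 0.417 for Runx2 (0.371 to 0.469) and 0.432 for Sp7 (0.373 to 0.501). Over all tested genes the log2 difference between the kits in FH had a median of -0.28, a 5th percentile of -1.75 and a 95th percentile of 1.12, so that Ibsp and Col11a1 were above and the regulators within this range. In CCE Col2a1 was 5.13 times (4.29 to 6.18) and Col11a1 3.83 times (3.16 to 4.68) as high with Ribo-Zero, while Sox9 was again lower (0.364). Runx2 was lower too (0.215, 0.113 to 0.392), but Col9a2 was higher in CCE (1.64, 1.25 to 2.15), the reverse of FH. The kits were used on different RNA, with different tag lengths and at different locations, and these cannot be told apart. The unique tags to which RPKM is scaled also include mitochondrial ones with Ribo-Zero (2363248 in CCE, 2200005 in FH) but none with RiboMinus.

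Tags across splice junctions were not mapped, so that tags of spliced RNA could be placed mainly where they lie within 1 exon. Tags that run from an exon into an intron were placed too and counted by their midpoint. The RiboMinus tags were 36 nt long at Vienna-IMP and 35 nt at Nijmegen, and positions were computed for 36 nt. A tag of 36 nt can start at a place where it lies wholly within an exon at 67.0% of the exon bases of Col2a1, 73.9% of Col9a1, 65.4% of Col9a2 and 75.7% of Col11a1, against 97.5% of Sox9 and a median of 90.8% over coding genes. For the 51 nt tags of Ribo-Zero these shares were 53.7%, 64.4%, 52.6% and 65.9%, against 96.4% and 86.9%. RPKM therefore understates the level of collagen genes relative to genes with long exons, and more so with the longer tags. Per fitting position the level of Col2a1 in FH was 119 RPKM with RiboMinus (116 to 123) in place of 79.9 and 237 with Ribo-Zero (235 to 239) in place of 127. The same positions are open in both tissues, so that their number cancels in the ratio of FH to CCE within a kit. Coverage along the exons of Col2a1 differed between the tissues, as described below, and its part in the ratio was not tested.

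Tag density also differed by exon length. In exons of 45 nt of the 4 collagens (16 exons), tags per kb were 24.6% of those in exons over 110 nt in FH with RiboMinus but 8.95% with Ribo-Zero. Exons of 54 nt (83 exons) had 31.9% and 34.9% over the 4 genes together, but by gene 18.1% and 32.7% in Col2a1, 66.1% and 56.4% in Col9a1, 55.7% and 60.4% in Col9a2, and 40.9% and 29.8% in Col11a1. In 9003 other coding genes with an RPKM over 3, exons of 45 nt had 73.8% and 26.9% and exons of 54 nt 83.1% and 112% of the density of exons over 110 nt. For both tag lengths the short exons pooled over the 4 collagens were thus further below their long exons than in the pool of other genes. That pool leaves out only these 4 genes and still holds other collagens such as Col1a1. Its length classes also draw on different genes, so that its short exons are not set against long exons of the same genes. Exons under 45 nt of the collagens (17 exons) held 72 FH RiboMinus tags in all, and 36 of them were in exon 4 of Col2a1 (33 nt), so that no density is read from them.

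**Figure D2:**
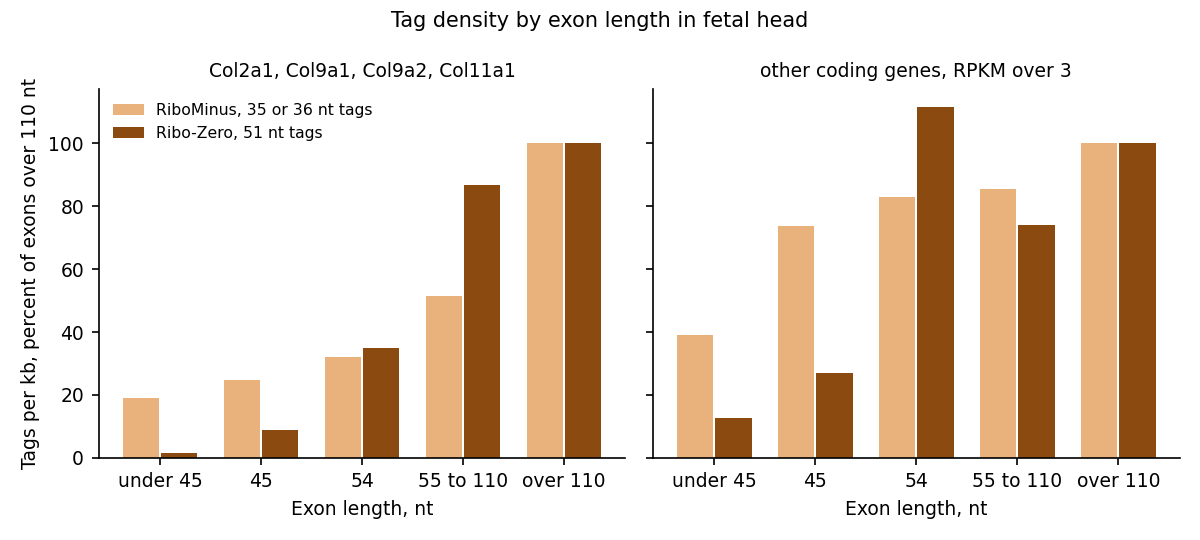
Tag density (tags per kb) in FH by exon length, as a percentage of the density in exons over 110 nt, for the 4 collagen members (left) and for other coding genes with an RPKM over 3 (right); light bars are pooled RiboMinus libraries with tags of 35 or 36 nt and dark bars the Ribo-Zero library with 51 nt tags. Exons of 45 nt of the collagens reach 24.6% and 8.95%, those of other genes 73.8% and 26.9%.

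Within Col2a1 the coverage also differed between helix exons and other coding exons, and the difference varied between preparations. Helix exons of at least 99 nt (14 exons, GC content 65.9%) were compared per fitting position with the other coding exons of that length (5 exons, GC content 58.6%). The latter are exons 2, 7, 51, 52 and 53, towards the ends of the transcript. The helix exons themselves ran from 6.11 RPKM in exon 27 to 149 in exon 48 in FH with RiboMinus. The comparison below is of helix exons with these others. The density of the helix exons was 0.317 times that of the others over the pooled RiboMinus tags of FH (0.291 to 0.346), whereas with Ribo-Zero it was 1.03 times (1.00 to 1.06). Among the preparations it was 0.570 in FH1s, 0.218 in FH1h and 0.294 in FH2h, so that the sheared preparation lay between the hydrolysed ones and Ribo-Zero. In CCE the density of helix exons was below that of the others with both kits, at 0.552 with RiboMinus (0.336 to 0.896) and 0.704 with Ribo-Zero (0.614 to 0.806). In FH Col11a1 gave 0.572 with RiboMinus (0.452 to 0.717) and 0.934 with Ribo-Zero (0.885 to 0.984). In CCE it was not below in this way, at 0.980 with RiboMinus (0.540 to 1.71) and 1.23 with Ribo-Zero (1.02 to 1.47). The FH preparations of Col11a1 differed in direction, with 2.50 in FH1s from 42 tags, 0.293 in FH1h and 0.632 in FH2h. In the same way, of 3 equal parts of the Col2a1 transcript the middle one held 9.31% of its FH RiboMinus tags and 26.7% of its Ribo-Zero tags, while the 3′ one held 68.0% and 44.7%. GC content and location in the transcript move together here, and their part in the coverage was not tested.

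**Figure D3:**
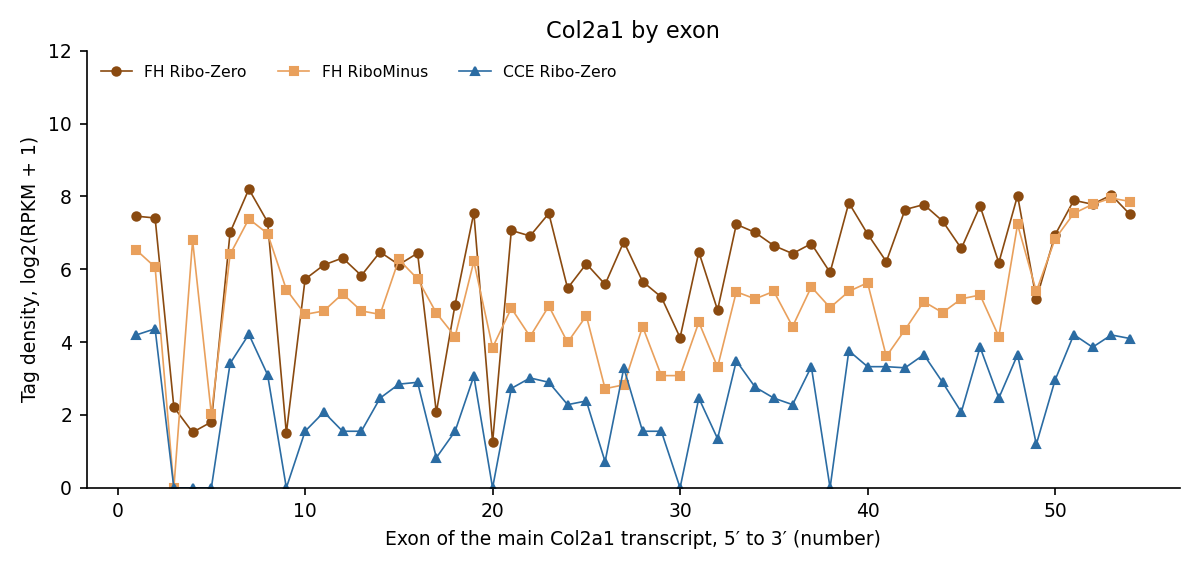
Tag density over the 54 exons of the main Col2a1 transcript, as log2(RPKM + 1) against exon number, for the pooled FH RiboMinus libraries (squares), the FH Ribo-Zero library (circles) and the CCE Ribo-Zero library (triangles). FH RiboMinus lies below FH Ribo-Zero over most helix exons of the middle and meets it in the last exons, and the deepest dips in the FH Ribo-Zero line are exons under 51 nt.

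Col2a1 exon 2 distinguishes the 2 main forms of type II procollagen. It encodes a cysteine-rich domain that is kept in the form of chondroprogenitors and other early tissues (IIA) and skipped in the form of mature chondrocytes (IIB). The exon is 204 nt long (chr15:97830834-97831037, mm9, minus strand) and is shown with its 10 cysteine codons in capitals.
Col2a1 exon 2: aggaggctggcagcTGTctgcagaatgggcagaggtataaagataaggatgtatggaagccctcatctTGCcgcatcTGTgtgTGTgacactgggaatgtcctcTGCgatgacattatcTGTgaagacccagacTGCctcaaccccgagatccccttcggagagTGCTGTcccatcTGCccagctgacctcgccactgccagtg
In FH its density per fitting position was 53.2% of that of the other exons with RiboMinus (44.4 to 63.3) and 59.9% with Ribo-Zero (57.0 to 62.9). The 3 preparations gave 49.1%, 53.9% and 54.8% in FH1s, FH1h and FH2h. In the CCE Ribo-Zero library the exon was at 119% of the other exons (97.2 to 144), from 115 tags, and the interval did not overlap that of FH. The CCE RiboMinus libraries gave 115% with a wide interval (48.2 to 235), from 8 tags. This difference between 2 single libraries has no replicate check, and since coverage varied along the transcript these percentages are not shares of molecules. They also depend on the measure, since tags are counted by midpoint and short exons have few fitting positions. In the FH Ribo-Zero library the 24 exons of 54 nt held 4537 tags on 96 such positions, which raises the density of the other exons.

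Col9a1 has a long form and a short form that starts at a promoter within the gene and lacks the amino-terminal domain. The coding starts of their first exons differ and are shown with the start codon in capitals (chr1:24184694-24184707 for the long and chr1:24202219-24202296 for the short form, mm9, plus strand).
Col9a1 long form: ATGaagaacttctg
Col9a1 short form: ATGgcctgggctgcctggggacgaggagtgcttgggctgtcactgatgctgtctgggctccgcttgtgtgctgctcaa
Both were covered in FH. The 6 exons of the long form had 57.3% of the density of the shared exons with RiboMinus (50.4 to 65.0) and 57.5% with Ribo-Zero (54.3 to 61.0), and the first exon of the short form had 21.2% (15.02 to 29.2) and 27.5% (24.4 to 31.0). Among the preparations the long form had 23.2% in FH1s, 66.9% in FH1h and 68.8% in FH2h, so that the sheared preparation stood apart. The short form had 17.8%, 21.4% and 23.0%. Tags were counted by midpoint, so that short exons also count tags that reach past their ends. In the FH Ribo-Zero library the 14 exons of 54 nt of Col9a1 held 1023 tags on 56 fitting positions. Its exons over 110 nt held 2077 on 666. Short shared exons thus raise the density by which both forms are divided, and the percentages are not shares of molecules.

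Runx2 starts at a distal promoter that is used in osteoblasts and at a proximal one that is used in other mesenchymal cells too. The first exons of the distal start (chromosome 17, 44950855 to 44951746) had 30.7% of the density of shared coding exons in FH with RiboMinus (20.1 to 46.1) and 62.7% with Ribo-Zero (48.6 to 81.1). The part found in the proximal first exon alone (44872568 to 44873597) had 42.0% (29.3 to 60.1) and 32.1% (24.0 to 42.9). Tags from both starts were thus present, and with RiboMinus the intervals overlapped. The paper reports lower tag coverage of 5′ untranslated regions than of coding exons. How far these first exons are untranslated was not examined, so that the percentages are not shares of starts. Among the preparations the distal part had 22.3%, 34.9% and 30.8% and the proximal part 95.9%, 32.0% and 29.3% in FH1s, FH1h and FH2h, so that FH1s stood apart. In CCE, where 36 RiboMinus tags lay in Runx2 exons, the distal part held none and the proximal part 7, and the CCE Ribo-Zero library held 7 in each.

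Ribosomal depletion keeps unspliced RNA, and tags in introns were found for all 10 genes in FH. As a percentage of exon density, intron density in the FH Ribo-Zero library was lowest for Ibsp (1.06%), Acan (1.39%) and Col2a1 (2.26%), between 3.08% and 3.77% for Col9a1, Matn1, Col11a1 and Col9a2, and highest for Runx2 (26.3%), Sp7 (17.8%) and Sox9 (15.7%). The median over 7674 coding genes with an RPKM over 3 was 9.87%, with quartiles of 6.01% and 16.0%. The 7 matrix genes lay below the lower quartile, Runx2 and Sp7 above the upper one, and Sox9 between them. Exon density, the divisor, was 2.03 to 6.86 RPKM in the regulators and 23.2 to 127 RPKM in the matrix genes. Runx2 itself is below the RPKM of 3, and the part of the exon level was not tested. In the RiboMinus libraries the regulators were at 7.34%, 11.0% and 8.98% in the same order and the matrix genes between 2.01% and 5.23%, around a median of 6.17%. The quartiles were 3.36% and 10.9% there, and Runx2, Sox9 and most matrix genes lay between them. Introns of Runx2 overlap Supt3h on the other strand, and without strand its intron tags cannot be assigned to 1 gene.

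**Figure D4:**
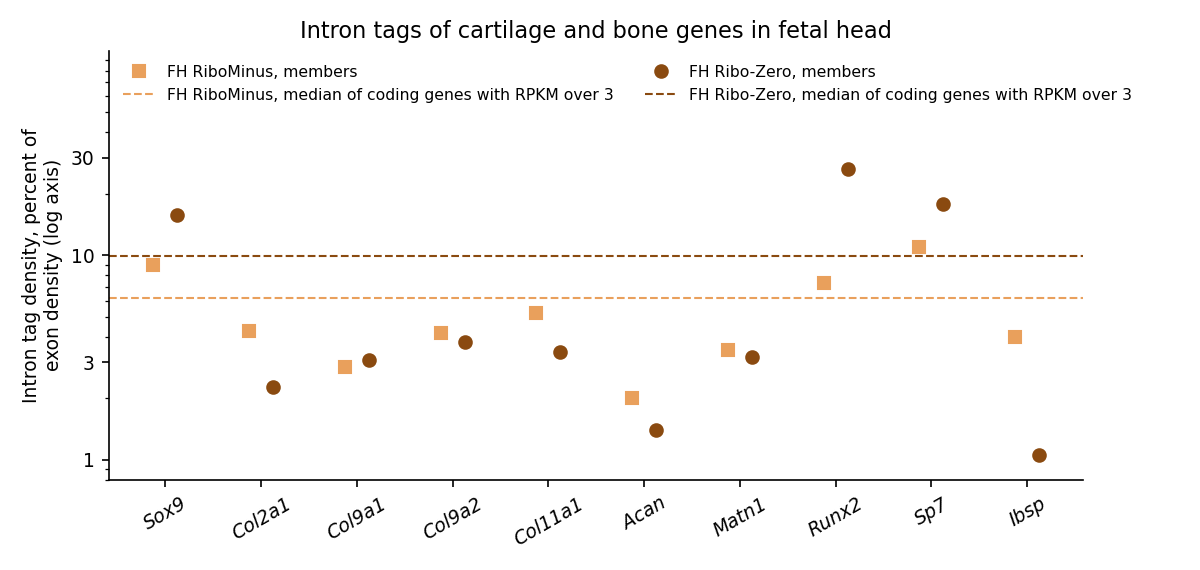
Density of intron tags as a percentage of the density of exon tags in FH (log axis) for each member, with squares for pooled RiboMinus libraries and circles for the Ribo-Zero library; dashed lines are the medians of coding genes with an RPKM over 3 (6.17% and 9.87%). The 7 matrix genes lie below the line of either kit, and Sox9, Runx2 and Sp7 above the line of the kit in question.

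The medians of coding genes were lower in CCE, at 3.44% with RiboMinus and 4.82% with Ribo-Zero. Intron tags of Col11a1 were 12.0 times (9.75 to 14.9) and 14.97 times (13.4 to 16.8) as dense in FH with RiboMinus and Ribo-Zero, while the exon ratios were 10.5 (8.64 to 12.8) and 7.77 (7.28 to 8.30). For Col2a1 the intron ratio was 8.43 (6.96 to 10.3) with RiboMinus, while the exon ratio was 47.6. In the CCE RiboMinus libraries the introns of Col2a1 held 122 tags and its exons 132, an intron density of 24.1% of that of exons, whereas the CCE Ribo-Zero library gave 6.27% (358 intron and 1491 exon tags).

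Other genes of cartilage were mostly higher in FH as well. Of 19 tested genes of a list of further cartilage matrix proteins and their enzymes, 17 rose and none fell, with a median log2 fold change of 2.13. The shares over all genes tested were 23.4% higher and 26.8% lower. Some alternatives had 1 gene lower, namely fragmentation as covariate, hydrolysed preparations alone, coding exons alone, repeated positions counted once and the fit without FH1h. Col11a2, another chain of type XI collagen, had 0.191 ± 0.0334 RPKM in CCE (SD, n = 4) and 28.0 ± 8.598 in FH (SD, n = 3), a log2 fold change of 4.57 ± 0.22. Lect1, the cartilage protein chondromodulin, had no tag in CCE and 172 in FH with RiboMinus. The 2 genes that did not pass were Slc26a2, the sulphate transporter needed for proteoglycans (-0.60, adjusted p = 0.0672), and Mia1, a secreted cartilage protein (0.31, adjusted p = 0.232). With number and fragmentation as a block Slc26a2 fell (-0.69, limma, adjusted p = 0.00680). For Mia1 the count depends on the exons used, and with coding exons alone its fold change was 4.12 (adjusted p = 0.000289).

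Of 13 tested chondrocyte regulators, 7 rose and none fell, with a median of 0.86, where 23.4% of all genes tested rose and 26.8% fell. With number and fragmentation as a block 10 rose, Pth1r (0.95) and Wwp2 (0.46) among them, and 10 rose with fragmentation alone as covariate too. Fewer rose elsewhere, with 5 of 11 tested for Nijmegen alone or coding exons alone and 5 of 9 for a mean RPKM over 3. 1 gene fell with fragmentation as covariate, with hydrolysed preparations alone and without FH1s. The largest change was that of Shox2, a homeobox factor of skeletal development, with 0.127 RPKM in CCE, 5.75 in FH and a log2 fold change of 2.57 ± 0.17. Sox5, a partner of Sox9, rose by 1.95, while Sox6 had a fold change of 0.29 (adjusted p = 0.371). Pth1r, the receptor for parathyroid hormone-related protein, did not pass in the fit without covariate (limma, adjusted p = 0.0516). It had 18.7 ± 6.78 RPKM in CCE (SD, n = 4) and 32.8 ± 9.47 in FH (SD, n = 3). Neither did Wwp2 pass there (0.39, adjusted p = 0.0874), nor the growth plate ligand Ihh (-0.66, adjusted p = 0.0812). Pth1r and Wwp2 passed with tags scaled to coding exons, where 10 genes of this list rose.

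Among 14 tested osteoblast regulators, 8 rose and 3 fell, with a median of 1.08. Over all genes tested 23.4% rose and 26.8% fell, so that falls are not particular to this list. With tags scaled to coding exons 2 of the list fell. The summed level of the list was 239 to 279 RPKM over the CCE and 278 to 312 over the FH RiboMinus preparations. With Ribo-Zero it was lower in FH (132 RPKM) than in CCE (155 RPKM). Mef2c, a factor of bone, muscle and brain, rose by 2.75 ± 0.24. Msx2, a homeobox factor of calvarial growth, fell by 2.02 ± 0.26, with 14.03 RPKM in CCE and 2.58 in FH, and Cbfb, the binding partner of Runx2, fell by 1.24. The most abundant genes of the list in both tissues, Atf4 (-0.38, adjusted p = 0.284) and Twist1 (-0.08, adjusted p = 0.834), did not pass. With number and fragmentation as a block Atf4 fell by 0.53 (limma, adjusted p = 0.0204) and 4 genes of the list fell, while Twist1 had 0.11. Fragmentation alone as covariate also left 4 genes of the list lower.

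Of 13 tested genes of bone matrix and mineralisation, 10 rose and 1 fell, with a median of 1.42. Over all genes tested 23.4% rose and 26.8% fell. The chains of type I collagen, which bone shares with skin and tendon, rose by 3.25 ± 0.28 (Col1a1, 12.7 ± 5.06 RPKM in CCE and 124 ± 16.9 in FH, SD, n = 4 and 3) and 4.22 ± 0.21 (Col1a2). Sparc, osteonectin, fell by 1.53 ± 0.27 from 135 RPKM in CCE to 45.9 in FH. It is also made by extraembryonic endoderm and is on that marker list too. Alpl, the phosphatase of mineralising cells, had 8.31 ± 3.77 RPKM in CCE and 8.04 ± 2.70 in FH (SD, n = 4 and 3; adjusted p = 0.998). Spp1, osteopontin, rose by 1.42 with RiboMinus, but in the Ribo-Zero libraries its order was the opposite, with 16.2 RPKM in CCE and 7.61 in FH. The osteocalcin genes Bglap and Bglap2 held 1 tag in all RiboMinus libraries and none with Ribo-Zero, but 45.6% of the 36 nt stretches of Bglap exons also occur in Bglap2, and only tags with a single place in the genome are listed.

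Of 9 tested genes of hypertrophic cartilage and osteoclasts, 5 rose and 3 fell, with a median of 0.70, where 23.4% of all genes tested rose and 26.8% fell. Ctsk, the collagen-degrading protease of osteoclasts, rose by 4.09 ± 0.41 (0.177 RPKM in CCE, 21.6 in FH), and Panx3, a channel of hypertrophic chondrocytes and osteoblasts, had no tag in CCE and 279 in FH with RiboMinus. Calcr, the calcitonin receptor of osteoclasts, fell by 2.09 ± 0.18, from 6.15 RPKM in CCE to 0.678 in FH. Vegfa (-0.63) and Acp5 (-0.49) fell as well but did not pass with tags scaled to coding exons. The count of genes that rose was 3 of 6 tested without FH1h or without FH2h, and 3 of 7 tested without the hydrolysed FH1 library of Vienna-IMP, with a median of 0.25. With a mean RPKM over 3 the median was -0.49, from 5 tested genes of which 2 rose and 3 fell. Among 9 mesenchyme and tendon markers 7 rose (8 with the block), led by Lum (5.66 ± 0.36), and the summed level of this list was 43.5 to 72.6 RPKM over the CCE and 214 to 288 RPKM over the FH preparations.

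**Figure D5:**
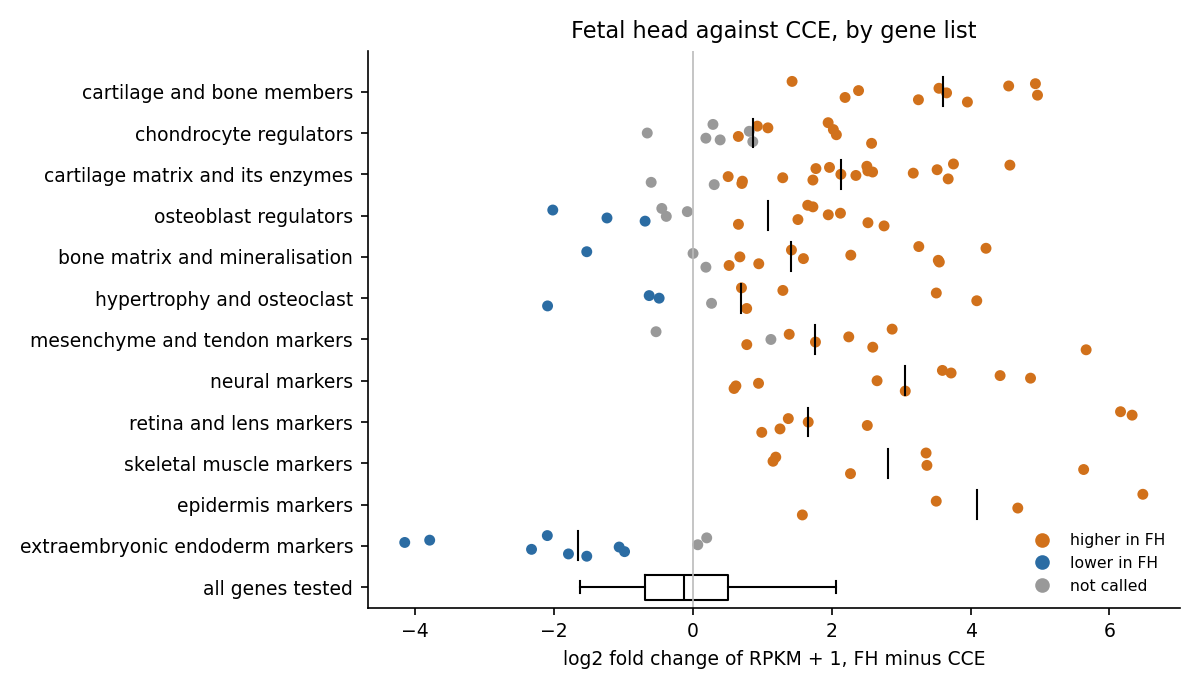
Log2 fold change of RPKM + 1 between FH and CCE for each tested gene of the members and of the other lists, with a bar at the median of each list and a box for all 15583 genes tested (quartiles and median, whiskers at the 5th and 95th percentile); colours mark genes called higher, lower or neither (limma, adjusted p under 0.05). The members lie right of the zero line, as do all called genes of the cartilage lists, while the bone and osteoclast lists hold called genes on both sides.

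Over all 16 libraries, genes outside the list whose log2(RPKM + 1) followed that of Col2a1 closely were Col1a2 (Pearson r = 0.992), Lama4 (0.988), Ncoa1 (0.986) and Col5a1 (0.985). Among the members Acan followed it most closely (0.988) and Sox9 least (0.678), and 2941 genes had an r at least as high as that of Sox9. The libraries share tissue, kit and preparation, and most of each correlation is the step between the tissues, so that these values are a description without a test.

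Some members differed between the sheared and the hydrolysed libraries. In FH, Matn1 had 52.1 RPKM in the sheared and 27.4 in the pooled hydrolysed libraries, and Sox9 31.9 and 17.2. Col11a1 had 6.36 and 10.4, and Col9a1 (22.9 and 24.2) and Acan (12.0 and 12.3) were nearly the same. Each difference rests on 1 sheared FH preparation, so that no test was made, and FH2h also differs by its rounds of depletion. In CCE the sheared preparations of Sox9 (5.34 and 12.1 RPKM) lay on both sides of the hydrolysed ones (7.15 and 5.60). Between the locations the lowest value of Col2a1 in FH, 49.2 RPKM, was that of hydrolysed FH1 at Nijmegen and the highest, 100.4, that of hydrolysed FH1 at Vienna-IMP. Matn1 spanned 16.9 to 34.02 RPKM over the 4 hydrolysed FH libraries.

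Promoter sequences (RefSeq, GRCm38.p6, from 250 bases before to 50 after each start) were at hand for 8 starts of 7 members, Sox9, Col2a1 and Sp7 excepted. TGTGGT, the core letters of a Runx binding site, or its reverse ACCACA occurred in the windows of Matn1 and Runx2, 2 of 8, and in 16.8% of 32851 promoters. GGGCGG, an Sp-type GC box, occurred in those of Acan, Col11a1, Col9a2 and Matn1, against 35.7% of promoters, and TATAAA in that of Ibsp, against 13.6%. AACAAT, letters of a Sox-type site, occurred only in the window of Ibsp, 1 of 8, against 10.7% of promoters. Matches were counted on both strands and describe letters only. The 250 bases before the starts of Matn1 (chr4:130944135-130944384, plus strand) and Runx2 (chr17:44814628-44814877, minus strand) are printed in the direction of transcription with the Runx letters in capitals, since these are the windows that hold them; another 2 matches of Runx2 lie behind its start.
Matn1 promoter: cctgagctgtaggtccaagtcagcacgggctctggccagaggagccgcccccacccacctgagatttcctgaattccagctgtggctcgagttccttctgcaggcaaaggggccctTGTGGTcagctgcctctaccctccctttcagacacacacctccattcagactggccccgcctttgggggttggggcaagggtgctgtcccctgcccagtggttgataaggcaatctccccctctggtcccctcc
Runx2 promoter: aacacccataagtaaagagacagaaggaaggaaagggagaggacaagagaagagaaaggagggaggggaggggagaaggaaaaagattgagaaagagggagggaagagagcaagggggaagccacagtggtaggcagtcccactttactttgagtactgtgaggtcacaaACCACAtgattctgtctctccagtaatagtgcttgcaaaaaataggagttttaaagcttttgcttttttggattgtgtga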

How the data were processed

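Strand-unspecific single tags were sequenced from 14 RiboMinus libraries (36 nt at Vienna-IMP, 35 nt at Nijmegen) and 2 Ribo-Zero libraries (51 nt). The authors aligned them with Bowtie to the mouse genome mm9, allowing 2 mismatches for RiboMinus and 3 for Ribo-Zero tags (versions not given in the sources used here), kept unique alignments, did not map across splice junctions and removed ribosomal tags, and in RiboMinus mitochondrial ones. The deposited files list tag positions, with a constant score that was not used. From these positions a tag was assigned to a gene if its midpoint fell in a merged GENCODE M1 exon, and tags were summed over the 2 locations per preparation and expressed as RPKM over all unique tags. Samples were grouped by tissue, kit and fragmentation as labelled, with preparation numbers from the study's list.

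FH was compared with CCE on log2(RPKM + 1) with limma 3.58.1 (lmFit, eBayes with trend) in R 4.3.3. The 3 FH and 4 CCE RiboMinus preparations were taken as separate units, also where they share depleted RNA. The fit had no covariate, covered genes with at least 20 tags and called them at an adjusted p of 0.05. Ratios of pooled tags carry exact conditional 95% intervals. A ratio against 3 tags or fewer rests on those few tags. Ribo-Zero has 1 library per tissue, so that no test was made. The fit was also run on simulated counts, of which no result is given here. Counts and plots were made in Python 3.11.15 (matplotlib 3.10.9, scipy 1.17.1, pandas 2.3.3, numpy 2.4.6).

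Deviations of equally numbered preparations from their tissue means correlated with r = 0.441, 0.546 and 0.531 over 15583 genes (number and fragmentation from the study's list). These pairs share fragmentation as well as number, and pairs of unequal number were not compared. The values therefore cannot show pairing by number. The main fit is unpaired, and number with fragmentation served as a block in an alternative. The members and lists were chosen with earlier results of these data known. Beyond the members, named genes were the 2 with the highest level and those with the highest and lowest fold change of each list, and the 5 that correlated best with Col2a1. Lect1, Sox5, Sox6, Cbfb, Spp1, Alpl, Bglap, Bglap2, Panx3 and Acp5 were named after their values were seen. Some genes that this rule or the lists hold are not reported here. Alternatives were other pseudocounts, filters, scales, exon sets, covariates, locations and left-out preparations. Another 3 lanes per tissue and 2 combined samples were not analysed here.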

Additional observations from a re-analysis of the deposited data

Results flagged for a closer look

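In 7 of 47 named genes 1 of the 4 CCE preparations lay far from the others. For 5 of them only that preparation held any tag, which marks a gene whatever its level, so that the usual chance of about 1 in 20 does not apply to them. Matn1 (0.554 RPKM in CCE2s) and Ibsp (0.121 RPKM in CCE1h) were at 0 in the other CCE preparations. The same was true of the lens gene Cryaa (0.250 RPKM in CCE2h) and of the epidermis genes Krt1 (0.137 RPKM in CCE1s) and Trp63 (0.0399 RPKM in CCE1s). The growth plate ligand Ihh was high in CCE2s (4.35 RPKM, the next 2.13), and the neuronal gene Stmn2 was low in it (8.15 RPKM, the next 16.4). At about 1 in 20 per gene, flags like those of Ihh and Stmn2 also arise by chance among 47 genes.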

How the results depend on the processing

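All 10 members were higher in FH and past the threshold under each of 24 alternatives, Sox9 with the smallest fold change (1.14 without FH1s) and the highest adjusted p (limma, 0.0232 with Nijmegen alone). With replicate number and fragmentation as a block (replicate block) 4217 genes were called higher and 5835 lower, and no call of a member changed. Pth1r, Wwp2, Slc26a2 and Atf4 passed, and the chondrocyte regulators that rose went from 7 to 10. The block changes several choices at once. CCE2s has no FH partner in it, and its fold changes are those of the fit without CCE2s. Fragmentation alone as covariate gave 4435 higher and 6035 lower, so that the change cannot be credited to pairing by number. With a mean RPKM over 3 the genes called higher were 2200 of 10856 tested. With Nijmegen alone 2409 were higher and 2688 lower of 14068 tested, and with tags scaled to coding exons 2554 of 15583 were lower. Of the hypertrophy and osteoclast list 5 genes rose, against 2 of 5 tested with a mean RPKM over 3, 3 of 6 or 7 tested with Vienna-IMP alone, with Nijmegen alone or without hydrolysed FH1 of Vienna-IMP, and 3 to 5 when each preparation was left out. Col2a1 in FH Ribo-Zero was 217 RPKM per fitting position in place of 237 with tags reaching 3 nt past an exon. Some genes that did not pass changed sign. Twist1 had 0.27 scaled to coding exons, 0.054 with the median set to 0, 0.031 with fragmentation as covariate, 0.11 under the replicate block, 0.10 with hydrolysed preparations, 0.13 with coding exons, 0.11 without CCE2s and 0.031 without FH2h, and between -0.27 and 0.11 over all left-out preparations. Mia1 had -0.0083 with Nijmegen alone and -0.017 without hydrolysed FH1 of Vienna-IMP, Wwp2 -0.041 with coding exons and the endoderm gene Sox7 -0.083 with both kits as RNA samples. The causes were not tested. Depth limits the CCE levels of Ibsp, Matn1, Sp7, Col9a1 and Acan, which rest on 1 to 5 RiboMinus tags.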

Other observations

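The tissue markers show which other genes of the head and of the cultured cells were measured beside cartilage and bone. Tubb3, a tubulin of neurons, had 16.9 RPKM in CCE and 217 in FH, with a log2 fold change of 3.59 (limma, adjusted p = 1.96e-06). Dcn (11.7 and 79.4 RPKM) and Col3a1 (11.2 and 56.5), matrix genes of loose connective tissue, were higher in FH. Gata6, an endoderm factor, fell by 4.15 (37.8 RPKM in CCE and 1.14 in FH), and Col4a2, a basement membrane collagen, fell by 1.79 (137 and 38.1).

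The tags of single transcripts were spread differently along Sox9 and Col2a1. Of 3 equal parts of the Sox9 transcript, the 3′ one held 7.67% of the RiboMinus tags and 30.9% of the Ribo-Zero tags in FH, and the 5′ one 62.0% and 43.0%. In FH1s the 3′ part held 1.61%.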
